A study of Mus musculus with 4 samples.

Results

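The 10 genes described here encode surface proteins by which muscle stem cells (MuSCs) are commonly sorted with antibodies: *Vcam1*, *Itga7*, *Ncam1*, *Sdc4*, *Sdc3*, *Cd9*, *Cd34*, *Chodl*, *Cxcr4* and *Calcr*. They were chosen by name as 10 of the 32285 genes counted, with no threshold on their values. The counts came from tdTomato+ cells, sorted out of hindlimb muscle of C57BL/6J mice 3 to 4 months old, 14 days after tamoxifen, and sequenced as single cells, with 2 control and 2 α-cdKO samples, each a pool of 2 littermates. The α-cdKO mice were *Ctnna1*fl/fl;*Ctnna3*fl/fl with *Pax7*CreERT2/+ and the *Rosa26*-tdTomato reporter, and the controls carried the same CreERT2 and reporter alleles but no floxed α-catenin allele. All 4 samples had received tamoxifen, and CreERT2 was driven from *Pax7*, so the reporter marks cells that expressed *Pax7* and their descendants. Muscle was digested with collagenase II and dispase II, and cells were sorted on the reporter with a dead-cell dye. None of the 10 proteins was used in the sort, so no antibody gate stands between the cells and the transcript values below.

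Quiescent MuSCs lie between the myofiber and its basal lamina, attached to the fiber through cadherins and to the lamina through integrins and proteoglycans. Antibodies to surface proteins are used to tell them from endothelial, immune and fibro-adipogenic cells of the same digest. When MuSCs activate they turn on *Myod1*, then cycle, and those that go on to differentiate express *Myog*. The sorting proteins differ in when they are present along this course, and a transcript level need not match the protein at the surface, which was not measured in these libraries.

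The libraries held 46099310 to 74921651 unique molecular identifiers (UMIs, which count captured RNA molecules), and 28790 of 31254 barcodes were kept. Any pair of libraries shared 9 to 26 cell barcodes, at most 0.383% of the smaller library. In α-cdKO 1, 51.2% of kept cells had *Xist* UMIs and no Y-linked UMI, against at most 0.0182% in the other 3 samples, so this pool held cells of both sexes. The targeted gene *Ctnna1* was at 91.1 and 74.8 CPM (the UMIs of a gene, added up over the cells of a sample and class and scaled to the total UMIs of those cells) in the myogenic cells of Control 1 and 2 and at 79.3 and 75.6 CPM in α-cdKO 1 and 2, and *Ctnna3* was at or under 0.0958 CPM in each. Counts of 3′ ends can show a deletion only where it lowers the counted end of the transcript, so the genotype of each sample rests on its label.

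Cells were clustered without the 10 genes and named from other markers. Quiescent-like cells numbered 4219, activated-like 20962, cycling-like 651 and differentiated-like 1277, and together these 27109 are called myogenic. Means of the 4 samples were 182 CPM of *Pax7* in quiescent-like, 666 CPM of *Myod1* in activated-like, 455 CPM of *Mki67* in cycling-like and 1174 CPM of *Myog* in differentiated-like cells. The quiescent-like cells also had immediate-early and stress genes (*Fos*, *Jun*, *Hspa1a*) among their leading genes, and *Myod1* was at 100.5 CPM in them. A further 1353 barcodes were mature-muscle-like (*Ckm* 14927 CPM), 223 were non-myogenic cells of 6 types, and 99 were mixed barcodes with *Myod1* beside endothelial or other genes. The non-myogenic cells were few, from 38 to 78 in a sample, and their values are given as a background more than as levels of those types.

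Promoter sequence was matched in RefSeq for 7 of the 10 genes, and 4 are shown because their transcripts represent the main patterns: *Chodl* and *Calcr*, highest in quiescent-like cells, *Sdc4*, highest in activated-like cells, and *Cd9*, highest among the myogenic classes in differentiated-like cells. Each line gives the first 250 bases of the promoter window, 5′ to 3′ on the gene's strand in GRCm38.p6, and capitals mark the E-box CANNTG, the core site of MyoD and related factors, and TGGGAA, the core site of RBPJ, the Notch effector, searched on both strands.
Chodl, chr16:78930698-78930947, plus strand: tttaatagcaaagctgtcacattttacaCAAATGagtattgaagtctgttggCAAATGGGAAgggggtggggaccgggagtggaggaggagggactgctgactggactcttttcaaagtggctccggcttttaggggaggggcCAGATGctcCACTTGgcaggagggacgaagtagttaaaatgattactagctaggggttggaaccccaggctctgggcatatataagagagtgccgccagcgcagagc
Calcr, chr6:3764714-3764963, minus strand: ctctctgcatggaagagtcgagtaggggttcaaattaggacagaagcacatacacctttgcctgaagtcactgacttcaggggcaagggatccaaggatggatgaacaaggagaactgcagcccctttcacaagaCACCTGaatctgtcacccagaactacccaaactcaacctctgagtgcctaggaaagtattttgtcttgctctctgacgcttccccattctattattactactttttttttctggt
Sdc4, chr2:164443189-164443438, minus strand: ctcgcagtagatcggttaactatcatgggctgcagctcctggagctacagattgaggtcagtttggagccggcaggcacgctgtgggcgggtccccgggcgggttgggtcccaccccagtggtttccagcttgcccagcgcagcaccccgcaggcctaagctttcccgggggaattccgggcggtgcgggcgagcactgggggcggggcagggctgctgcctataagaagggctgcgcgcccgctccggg
Cd9, chr6:125494761-125495010, minus strand: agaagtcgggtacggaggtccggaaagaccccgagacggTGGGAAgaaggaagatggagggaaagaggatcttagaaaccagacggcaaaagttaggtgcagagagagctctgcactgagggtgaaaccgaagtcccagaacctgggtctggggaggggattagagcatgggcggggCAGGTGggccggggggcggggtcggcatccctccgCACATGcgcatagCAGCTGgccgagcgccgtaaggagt
The *Chodl* window held 4 E-boxes and 1 TGGGAA, with starts 222, 198, 107 and 98 bases and 194 bases before the annotated start, where the second E-box and TGGGAA share letters. The *Cd9* window held 3 E-boxes, at 73, 38 and 25 bases, and 1 TGGGAA at 211 bases. The upstream of 2 *Calcr* windows held 1 E-box at 115 bases. In the *Sdc4* window neither motif was present in either orientation. This window lies inside the *Sdc4* gene interval given below, which ends at 164443887, so it does not describe the sequence upstream of that end. Neither motif occurred in the windows of *Cd34*, *Cxcr4* or *Sdc3* or in the downstream *Calcr* window. Among the 32851 promoter windows of the same length, 66.2% held an E-box and 21.6% held TGGGAA, so a match in these windows is common and is no more than a description of the letters. The AP-1 site TGANTCA (6.75% of all windows) and the NF-κB consensus (0.356%) were found in none of the 8 windows of these genes.

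Levels across the classes are described first for the adhesion molecules. *Vcam1* (chromosome 3, 116109949 to 116129688) encodes VCAM1, an immunoglobulin-family ligand of integrin α4β1. In activated-like cells it stood at 451 and 538 CPM in Control 1 and 2 and at 468 and 551 CPM in α-cdKO 1 and 2. Quiescent-like cells had 200, 207, 257 and 260 CPM in the same order. Every quiescent-like value lay below every activated-like value, and the means were 231 ± 32.0 and 502 ± 49.8 CPM (SD, n = 4), a log2 difference of −1.12. Cycling-like (276 ± 21.7 CPM) and differentiated-like cells (225 ± 33.9 CPM) overlapped quiescent-like cells in range.

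*Itga7* (chromosome 10, 128933818 to 128958282) encodes integrin α7, which pairs with β1 to bind laminin in the basal lamina. It showed the reverse order. Activated-like cells had 27.0, 29.5, 32.6 and 38.1 CPM in Control 1, Control 2, α-cdKO 1 and α-cdKO 2, and quiescent-like cells had 47.8, 52.3, 60.4 and 61.1 CPM. The ranges did not overlap, with a log2 difference of 0.80. The means in cycling-like (74.2 ± 7.40 CPM) and differentiated-like cells (66.8 ± 12 CPM) were higher still, although differentiated-like and quiescent-like ranges overlapped. The lowest means of *Itga7* were those of non-myogenic (23.2 ± 7.67 CPM) and mature-muscle-like cells (14.3 ± 8.19 CPM).

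*Ncam1* (chromosome 9, 49502136 to 49798925) encodes NCAM, a homophilic adhesion molecule of muscle and nerve. Its highest values were those of cycling-like cells, 304 and 322 CPM in the controls and 325 and 286 CPM in the α-cdKO samples, above every value of the other 5 classes. Quiescent-like cells followed at 199 ± 15.2 CPM, and all 4 of their values lay above the 4 of activated-like cells (148 ± 13.4 CPM). Activated-like and differentiated-like cells (129 ± 39.2 CPM) overlapped.

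The syndecans carry heparan sulfate chains that hold growth factors at the cell surface. *Sdc4* (chromosome 2, 164424247 to 164443887) had the widest separation between quiescent-like and activated-like cells of the 10 genes. In activated-like cells it was at 3145, 3055, 2720 and 3061 CPM in Control 1, Control 2, α-cdKO 1 and α-cdKO 2. Quiescent-like cells had 880, 566, 626 and 700 CPM, and the log2 difference of the means was −2.11. Differentiated-like cells (1036 ± 307 CPM), cycling-like cells (767 ± 150 CPM) and quiescent-like cells (693 ± 136 CPM) overlapped their neighbors in the order. *Sdc3* (chromosome 4, 130792537 to 130826319) was near the limit of these data, with 1138 UMIs over all myogenic cells. Its means were 5.59 ± 1.03 CPM in quiescent-like, 3.95 ± 0.743 CPM in activated-like, 14.5 ± 5.42 CPM in cycling-like and 9.98 ± 4.58 CPM in differentiated-like cells. Non-myogenic cells had 51.3, 32.4, 78.2 and 50.1 CPM of *Sdc3*, each above every myogenic value.

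*Cd9* (chromosome 6, 125460266 to 125494791) encodes a tetraspanin that associates with integrins and takes part in myoblast fusion. From quiescent-like to differentiated-like cells its means were 406 ± 77.4, 457 ± 103, 651 ± 89.4 and 805 ± 170 CPM, with quiescent-like and activated-like, activated-like and cycling-like, and cycling-like and differentiated-like cells overlapping pairwise. Differentiated-like cells had 648 and 697 CPM in the controls and 1025 and 848 CPM in the α-cdKO samples. All 4 values lay above those of activated-like cells, by 1.64- to 1.88-fold within each sample. *Cd9* was not particular to muscle cells in these libraries, since glial-like cells had 2091 to 4352 CPM and the non-myogenic cells as a whole had 1030 ± 319 CPM.

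*Cd34* and *Chodl* encode glycoproteins of the cell surface, CD34 a sialomucin and chondrolectin a membrane protein with a C-type lectin domain. *Cd34* (chromosome 1, 194938819 to 194961279) was at 131, 127, 94.1 and 102 CPM in quiescent-like cells of Control 1, Control 2, α-cdKO 1 and α-cdKO 2. Activated-like cells had 59.7, 46.6, 39.9 and 45.9 CPM, and each quiescent-like value was above each of these. It was lowest in mature-muscle-like and differentiated-like cells (25.2 ± 19.2 and 21.6 ± 9.72 CPM). The non-myogenic cells exceeded every myogenic class at 163 to 309 CPM, and the fibro-adipogenic-like cells within them had 704 to 889 CPM.

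*Chodl* (chromosome 16, 78930948 to 78951733) was at 559, 624, 469 and 560 CPM in quiescent-like cells and at 236, 205, 195 and 256 CPM in activated-like cells of the same samples. The separation was complete, with a 2.48-fold difference of the means. Cycling-like cells had 180 ± 24.0 CPM and differentiated-like cells 85.4 ± 25.7 CPM, and these ranges did not overlap either. No *Chodl* UMI was found in the endothelial-like cells at 2000 UMIs per cell (0 of 69 cells, compatible with shares up to 4.35%).

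The remaining genes encode receptors. *Calcr* (chromosome 6, 3685680 to 3764714) encodes the calcitonin receptor, which is known to hold MuSCs in quiescence. Quiescent-like cells had 60.3, 64.1, 54.8 and 58.4 CPM and activated-like cells 35.9, 38.6, 39.8 and 46.7 CPM in Control 1, Control 2, α-cdKO 1 and α-cdKO 2, again with no overlap. Cycling-like cells (32.8 ± 8.0 CPM) overlapped activated-like cells, and differentiated-like cells were lower than both at 13.5 ± 1.57 CPM. *Cxcr4* (chromosome 1, 128588199 to 128592293) encodes the receptor of the chemokine CXCL12. Its order was different, with 44.9, 80.9, 102 and 81.5 CPM in differentiated-like cells, each above the 18.9 to 29.8 CPM of activated-like cells. The quiescent-like range (27.5 to 41.8 CPM) overlapped the activated-like range, and cycling-like cells had 45.6 ± 16.4 CPM.

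**Figure D1:**
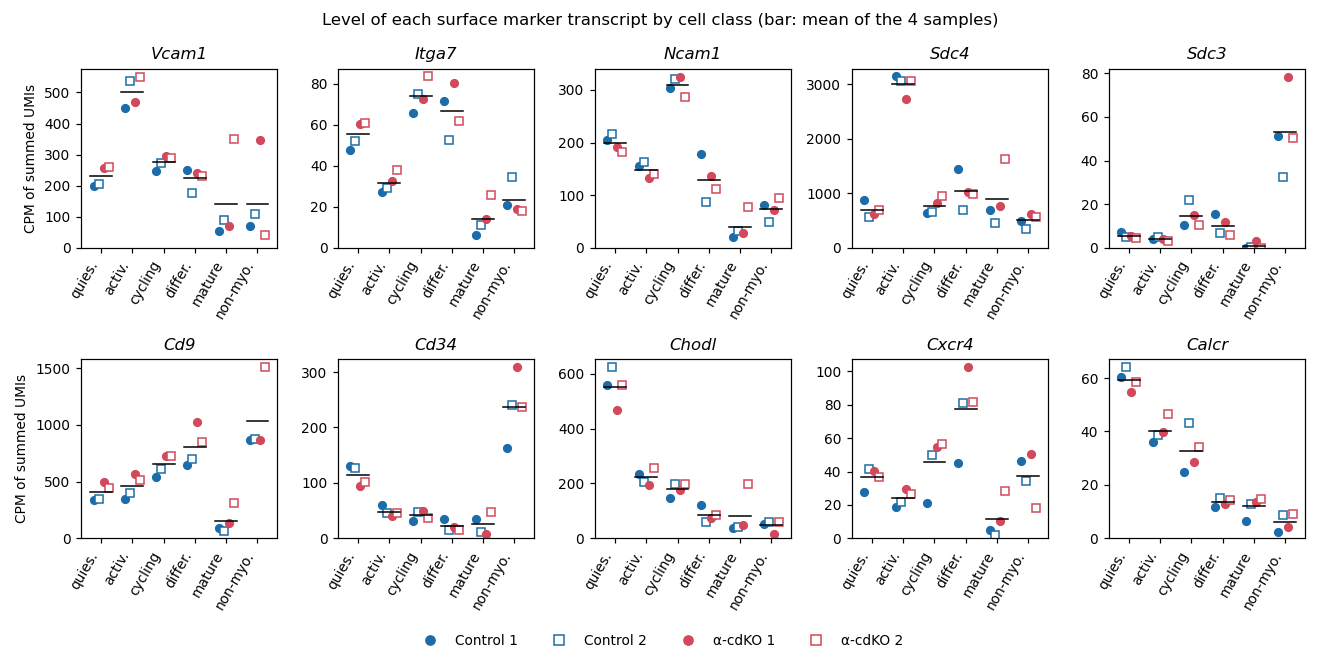
Level of each of the 10 transcripts (vertical axis, CPM of UMIs summed over the cells of a class, linear from 0) in each sample (points: blue control, red α-cdKO, filled replicate 1, open replicate 2) by cell class, with the mean of the 4 samples as a bar. *Vcam1* and *Sdc4* peak in activated-like cells, *Chodl* and *Calcr* are highest in quiescent-like cells, *Ncam1* peaks in cycling-like cells and *Cxcr4* has its highest mean in differentiated-like cells.

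In all, 5 of the 10 genes were higher in each quiescent-like value than in each activated-like value (*Cd34*, *Itga7*, *Calcr*, *Chodl* and *Ncam1*) and 2 were lower (*Vcam1* and *Sdc4*). Over the 6060 genes with a mean of at least 10 CPM, 32.8% were separated in the higher and 34.5% in the lower direction, so separation as such was common. These are descriptions without a test, because the classes were made from the same cells. Against activated-like cells, differentiated-like cells were separated upward for *Itga7*, *Cxcr4* and *Cd9* (40.9% of genes) and downward for *Vcam1*, *Cd34*, *Sdc4*, *Calcr* and *Chodl* (13.8%). *Sdc3*, under the 10 CPM floor, was also separated upward there. Cycling-like cells were separated upward from activated-like cells for *Itga7* and *Ncam1* (48.8%) and, under the floor, *Sdc3*, and downward for *Vcam1* and *Sdc4* (13.9%). Between the ends of the course, differentiated-like cells were above quiescent-like cells in every value for *Cxcr4* and *Cd9* (44.2% of genes) and below them for *Cd34*, *Calcr*, *Chodl* and *Ncam1* (14%). Mature-muscle-like cells were below activated-like cells for *Vcam1*, *Itga7*, *Sdc4*, *Calcr*, *Ncam1* and *Cd9* (46.3%) and above them for none of the 10 (29.2%).

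The activated-like class held 2 clusters, of which cluster 0 led with chemokine genes such as *Cxcl2* and cluster 1 with chaperone genes. *Cd34*, *Itga7*, *Cxcr4*, *Calcr* and *Chodl* were higher in each value of cluster 1 (14% of genes), as was *Sdc3* under the floor, and *Sdc4* was lower (20.4%). *Calcr* was at 53.4 ± 5.45 CPM in cluster 1 and 29.3 ± 3.99 CPM in cluster 0, and *Sdc4* at 2325 ± 238 and 3553 ± 229 CPM. *Vcam1* did not separate them (485 ± 39.0 and 518 ± 62.8 CPM). Set against quiescent-like cells, cluster 1 still had more *Sdc4* and *Vcam1* in all 4 samples, but its *Calcr* range (47.9 to 59.9 CPM) overlapped that of quiescent-like cells.

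When cells were instead grouped by UMIs of single genes at 2000 UMIs each, the 2597 cells with *Pax7* and no *Myod1* UMI and the 6875 with *Myod1* and no *Pax7* UMI gave the same 7 separated genes in the same directions. These groups cross the clusters: 1534 of the 2597 *Pax7* cells were activated-like and 975 quiescent-like. The 593 cells with a *Myog* UMI, of which 499 were differentiated-like, had *Cxcr4* UMIs in 15% of cells, *Vcam1* in 11.5%, *Chodl* in 7.25% and *Calcr* in 1.01%. The differentiated-like class had 1255 cells at this depth, so most of them had no *Myog* UMI and the 2 groups are not the same cells.

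How often a sorting transcript was seen in a cell was compared after each cell was thinned to 2000 UMIs, because median depth differed from 5865 UMIs in quiescent-like to 15669 in cycling-like cells. *Sdc4* had a UMI in 94.9% of activated-like cells (95% interval 94.6 to 95.2) and in 56.7% of quiescent-like cells (55.1 to 58.2). *Vcam1* was detected in 39.7% (39.1 to 40.4) and 31.2% (29.8 to 32.7) of these cells, and *Chodl*, in the other direction, in 31.6% (31.0 to 32.3) and 61.4% (59.9 to 62.9). The *Vcam1* shares of the 2 classes did not overlap over samples at 2000 UMIs but did at 4000 UMIs (48.9% of quiescent-like and 53.5% of activated-like cells) and without thinning. At 2000 UMIs most quiescent-like cells had a *Chodl* UMI and most had no *Vcam1* UMI.

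Other genes were seen in fewer cells. *Cd34* was detected in 18.5% of quiescent-like and 8.16% of activated-like cells, *Calcr* in 10.5% and 6.96%, and *Itga7* in 10.8% and 5.59%. *Cxcr4* reached its highest share in differentiated-like cells, 15.2% (13.3 to 17.3), against 6.48% of quiescent-like and 4.02% of activated-like cells. *Ncam1* was found in 46.0% of cycling-like and 30.8% of quiescent-like cells, and *Cd9* in 75.8% of differentiated-like and 50.1% of quiescent-like cells. *Sdc3* UMIs were present in 0.649% of activated-like and 2.69% of cycling-like cells, below its share in immune-like cells (7.69%).

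Free RNA in droplets gives UMIs in cells that do not express a gene, and the immune-like cells served as a background for the MuSC genes. Of 39 immune-like cells (at 2000 UMIs), 3 had a *Vcam1* UMI (7.69%, interval 1.62 to 20.9), 3 a *Chodl* UMI and 1 each a *Cd34* and an *Itga7* UMI (2.56%, 0.0649 to 13.5). No *Calcr* UMI was seen in them, for which the limit is 7.69%. The *Calcr* share of quiescent-like cells lay above that limit, whereas that of activated-like cells did not. The *Itga7* and *Cd34* shares of activated-like cells and the *Itga7* share of quiescent-like cells were within the upper bound of the immune-like interval. At this depth these shares were not told apart from background. The *Cd34* share of quiescent-like cells lay above that bound. In the larger mature-muscle-like group of 933 cells, *Calcr*, *Itga7* and *Cd34* were detected in 1.61%, 1.82% and 2.47%, all lower than in activated-like cells. *Cxcr4* was detected in 0.643% of mature-muscle-like cells but in 23.1% of immune-like cells, which use this receptor too. *Ncam1* was as frequent in immune-like cells (23.1%, 11.1 to 39.3) as in activated-like cells (22.7%) and was found in 48.3% of 29 glial-like cells, and *Sdc4* and *Cd9* were detected in 30.8% and 59.0% of immune-like cells.

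**Figure D2:**
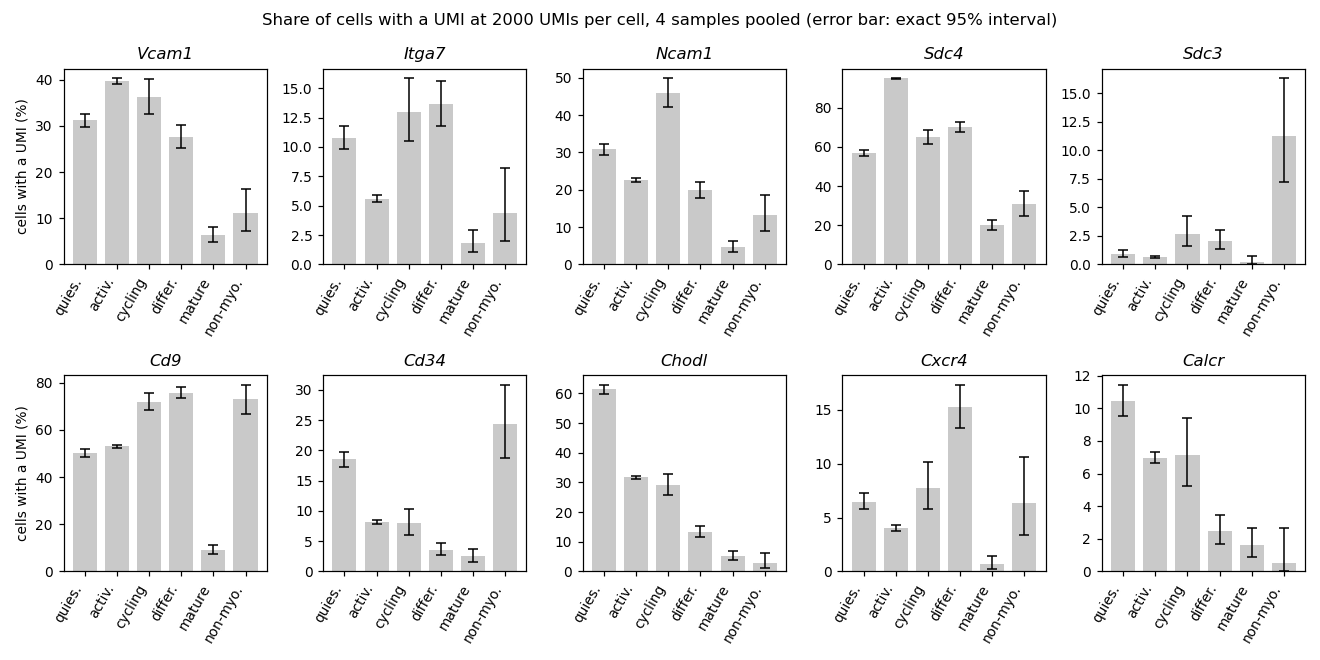
Share of cells with at least 1 UMI of each gene (vertical axis, percent, from 0) after thinning to 2000 UMIs per cell, by cell class with the 4 samples pooled, where error bars are exact 95% intervals that cover counting error only. *Sdc4* reaches 94.9% in activated-like cells, *Chodl* 61.4% in quiescent-like cells, and *Cd34* and *Sdc3* are most frequent in the non-myogenic cells.

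Sorting strategies combine markers, and the transcripts were read in the same way. At 2000 UMIs a myogenic cell had UMIs of a mean of 2.68 of the 10 genes, with 2.77 in quiescent-like, 2.67 in activated-like, 1.78 in non-myogenic and 0.521 in mature-muscle-like cells. None of the 10 was detected in 1.28% of myogenic cells and in 76.0% of mature-muscle-like cells. UMIs of *Vcam1* or *Itga7* were present in 42% of myogenic and 15.1% of non-myogenic cells. Requiring in addition no UMI of the lineage exclusion genes *Ptprc*, *Pecam1*, *Ly6a* and *Itgam* left 41.5% of myogenic and 6.34% of non-myogenic cells (interval 3.42 to 10.6). *Pecam1* and *Ptprc* were also among the markers that named the endothelial-like and immune-like cells. The drop in non-myogenic cells was therefore partly built into the classes and does not measure how a sorting gate performs. An exclusion gene was seen in 4.28% of quiescent-like and 0.548% of activated-like cells. In quiescent-like cells this was largely *Pecam1*, an endothelial gene found in 3.96% of them, with *Ptprc* UMIs in 0 of 4088 cells (up to 0.0734%), and the part of endothelial RNA in this was not tested.

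Pairs of markers were detected together about as often as the product of their shares. In myogenic cells *Sdc4* and *Vcam1* were found together in 34.1% of cells, where the product was 32.9%, and *Ncam1* and *Vcam1* in 9.35%, where it was 9.18%. *Vcam1* and *Itga7* were seen together in 2.68% of cells and either of them in 42%. The largest ratios were those of *Chodl* with *Calcr*, 3.16% against a product of 2.57%, and *Itga7* with *Cd34*, 0.803% against 0.660%. Each of these genes was detected in a larger share of quiescent-like than of activated-like cells. The part of pooling the classes in these ratios was not tested. Of the 9 pairs, 4 exceeded the product in all 4 samples (*Itga7* with *Cd34*, *Sdc4* with *Vcam1*, *Chodl* with *Calcr*, *Ncam1* with *Vcam1*), and *Cd9* with *Cd34* was below it in all 4. Within activated-like cells *Itga7* with *Cd34* kept a ratio of 1.30, while within quiescent-like cells it was 0.970 and exceeded the product in 2 of 4 samples.

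**Figure D3:**
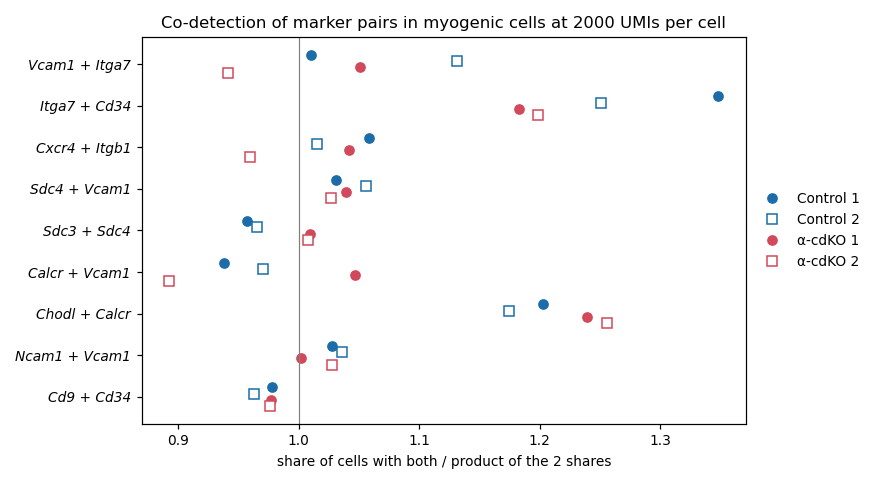
Ratio of the share of myogenic cells with UMIs of both genes to the product of the 2 shares (horizontal axis, linear, not from 0; 1 marks the product) for each marker pair at 2000 UMIs per cell, with a point for each sample. All points of *Itga7* with *Cd34* and of *Chodl* with *Calcr* lie above 1, and all points of *Cd9* with *Cd34* lie below it.

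The comparison of genotypes asks whether the sorting transcripts differ in cells from α-cdKO mice. None of the 10 passed an adjusted p under 0.05 in edgeR's quasi-likelihood test in all myogenic cells (26 of 14622 genes did, 0.178%). At an unadjusted p under 0.05 there were 4 of 10, where 7.01% of all genes reached this. DESeq2 called 1 of the 10, and 118 of 23072 genes. The same was true in each class. In quiescent-like, activated-like, cycling-like and differentiated-like cells 0 of 10 were called, with 3, 3, 2 and 1 at an unadjusted p under 0.05 (of all genes 0.0783%, 0.358%, 0.0336% and 0.0103% were called, and 8.43%, 7.48%, 8.07% and 3.17% reached the unadjusted level). DESeq2 called none of the 10 in these 4 classes. With 2 samples per genotype, a simulated test on all myogenic cells called 45.8% of genes given a log2 change of 1, and smaller changes were not simulated.

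*Cd9* had the lowest p of the 10 in all myogenic cells. Its levels were 360 and 416 CPM in the controls and 622 and 538 CPM in the α-cdKO samples, so both α-cdKO values were higher. By edgeR, α-cdKO over control was 0.57 on the log2 scale (standard error 0.13, Benjamini-Hochberg adjusted p = 0.363), with a range of adjusted p over the alternatives from 0.032 with DESeq2 to 1.00. It was 0.49 (standard error 0.12, adjusted p = 0.360 by edgeR) in quiescent-like cells and 0.58 (0.14, 0.280 by edgeR) in activated-like cells. At equal depth, 44.4% and 46.8% of control and 57.8% and 56.8% of α-cdKO activated-like cells had a *Cd9* UMI. The two-sided exact permutation p was 0.333, the smallest that 2 samples against 2 can give.

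*Cd34* lay in the opposite direction, at 65.8 and 56.9 CPM in the controls and 44.4 and 50.2 CPM in the α-cdKO samples. Its log2 estimate in myogenic cells was −0.38 (standard error 0.15, adjusted p = 0.689 by edgeR). *Cxcr4* was at 21.0 and 29.2 CPM in the controls and 40.8 and 32.1 CPM in the α-cdKO samples (log2 0.53, standard error 0.19, adjusted p = 0.665 by edgeR), and *Itga7* at 31.8 and 35.9 CPM against 44.2 and 43.7 CPM (log2 0.37, standard error 0.12, adjusted p = 0.642 by edgeR). In these 3 genes and in *Cd9* and *Ncam1* the genotypes did not overlap, which was 5 of 10 where 38.3% of genes over 10 CPM were so separated (20.8% higher in α-cdKO, 17.5% lower). Values over all myogenic cells also depend on the mix of classes. Differentiated-like cells, with more *Cxcr4* and *Itga7* and less *Cd34* than activated-like cells, were 142 of 5278 and 150 of 4459 in Control 1 and 2. They were 655 of 9394 and 330 of 7978 in α-cdKO 1 and 2, and the part of this mix was not tested. Within activated-like cells, with the TMM scaling of the edgeR test, *Cxcr4* was at 18.3 and 21.9 CPM in Control 1 and 2 and 30.4 and 26.4 CPM in α-cdKO 1 and 2. In the same order *Itga7* was at 26.2 and 29.7 against 33.3 and 38.2 CPM, and *Cd34* at 57.9 and 47.0 against 40.7 and 46.1 CPM. In quiescent-like cells *Cxcr4* overlapped between genotypes (26.8 and 42.3 against 40.7 and 37.5 CPM). Because α-cdKO 1 was a pool of both sexes, the estimates over all myogenic cells were repeated in cells with Y-linked and no *Xist* UMIs. There *Cd9* was at 0.53 (standard error 0.13) and *Cd34* at −0.44 (0.18), whereas *Cxcr4* was at 0.27 (0.19) and *Itga7* at 0.22 (0.17). This subset also changed the mix of classes in α-cdKO 1. Its differentiated-like cells went from 655 of 9394 myogenic cells to 50 of 2840, and its cycling-like cells from 411 to 34. The same subset was also fitted by edgeR within classes, where 0 of the 10 were called in activated-like cells (29 of 12867 genes were). The parts of sex and of class mix in the changed estimates over all myogenic cells were not tested.

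*Vcam1* did not separate the genotypes in all myogenic cells, at 413 and 458 CPM in the controls and 407 and 488 CPM in the α-cdKO samples (log2 0.04, standard error 0.15, adjusted p = 0.969 by edgeR). In quiescent-like cells the α-cdKO values were the higher ones, by 0.38 on the log2 scale (standard error 0.12, adjusted p = 0.487 by edgeR), and in activated-like cells it was 0.07 (0.15). The difference between these classes was −0.28 (standard error 0.13, adjusted p = 0.981 by edgeR, unadjusted p = 0.0416), and for *Calcr* it was 0.37 (0.16, unadjusted p = 0.0341). No member passed the adjusted threshold for such a difference, where 2 of 13848 genes did (0.0144%), and 2 of 10 were under an unadjusted p of 0.05 (4.52% of all genes). DESeq2 called none. *Sdc4* changed sign between estimates, with log2 values of −0.155 (0.15) in all myogenic, −0.07 (0.12) in activated-like and 0.53 (0.12, adjusted p = 0.368 by edgeR) in cycling-like cells, of which Control 1 had 30.

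Separation of the 2 genotypes by range was frequent among all genes, and is set beside that of the members here without a test. In quiescent-like cells *Vcam1*, *Itga7* and *Cd9* were higher in both α-cdKO samples (19.5% of genes) and *Cd34*, *Calcr* and *Ncam1* lower (23.5%), together 6 of 10 against 43% of genes. In activated-like cells *Cd9*, *Cxcr4*, *Itga7* and *Calcr* were higher (18.1%) and *Cd34*, *Ncam1* and, under the floor, *Sdc3* lower (19.9%, with 37.9% in either direction). *Vcam1*, *Cxcr4*, *Sdc4* and *Cd9* were higher in cycling-like cells (16.1%) and none lower (25.3%, in all 41.5%), and *Cxcr4* and *Cd9* were higher in differentiated-like cells (11%) and none lower (17.9%, in all 28.9%). With TMM scaling, as in the edgeR test, *Calcr* in quiescent-like and *Sdc3* in activated-like cells overlapped between genotypes, and *Itga7* in cycling-like cells no longer did. *Cd9* is the 1 gene of the 10 whose control and α-cdKO values did not overlap in any of the 4 classes, on either scale.

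**Figure D4:**
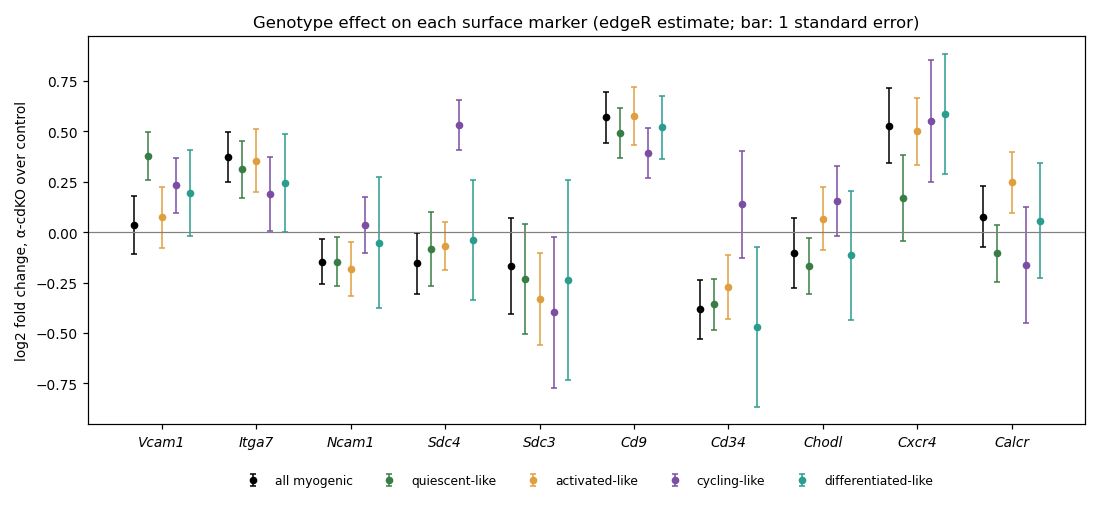
Log2 fold change of α-cdKO over control (vertical axis) for each gene in all myogenic cells and in the 4 myogenic classes, from edgeR, with 1 standard error as bars. The 5 estimates of *Cd9* lie above 0, those of *Cd34* lie below 0 except in cycling-like cells, and none passed an adjusted p under 0.05.

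Partners of these proteins were taken from a list of 18 ligands, co-receptors and relatives, and other MuSC surface genes from a list of 21. Another list held 8 lineage exclusion genes. No gene of these lists was called between genotypes in any class. In myogenic cells the median log2 fold changes were 0.05 over 17 tested partners and 0.04 over 20 tested surface genes, against −0.01 over all genes. By edgeR, 1 and 3 of these genes had an unadjusted p under 0.05, a level that 7.01% of all genes reached. The 5 exclusion genes tested had a median of −0.28, and none had an unadjusted p under 0.05. *Ackr3*, the other CXCL12 receptor, had the largest change among partners with at least 10 CPM, 229 and 187 CPM in the controls against 126 and 156 CPM in the α-cdKO samples (log2 −0.57, standard error 0.17, adjusted p = 0.607 by edgeR). *Cdh15*, which encodes M-cadherin, was at 77.9 and 55.3 CPM against 45.0 and 55.0 CPM (log2 −0.42, 0.21). *Notch1* was at 44 and 44.7 CPM against 58.8 and 57.4 CPM (log2 0.38, 0.11, adjusted p = 0.580 by edgeR). The next in size were the growth factor gene *Mdk* (log2 0.38, standard error 0.21), *Cd24a* (−0.34, 0.19) and *Fgfr4* (−0.21, 0.17).

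Across the classes, 4 of the 12 partners over 10 CPM were separated upward in quiescent-like against activated-like cells (*Ramp2*, *Sdc2*, *Fgfr4*, *Lama2*) and 4 downward (*Ackr3*, *Cd63*, *Fgfr1*, *Met*). Of the 16 other surface genes, 5 were separated upward, among them *Cdh15*, *Notch3* and *Cd47*, and 7 downward, among them *Cd82*, *Cd200* and *Cd44*. Of 3 exclusion genes over 10 CPM, *Pecam1* was separated upward and *Cd24a* downward. Over all genes above that floor, 32.8% were separated upward and 34.5% downward. *Fgfr1*, a receptor that works with syndecans, was at 462 ± 30.7 CPM in activated-like and 218 ± 8.62 CPM in quiescent-like cells, and *Fgfr4* at 57.6 ± 12.1 and 150 ± 22.6 CPM.

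The genes most like each member were sought over 24 sums (6 classes in 4 libraries) among 7271 genes with a mean of at least 10 CPM, by Pearson's r of log2(CPM + 1). These points share libraries and cell classes, so r is a description. *Chodl* was most like *Pax7* (r = 0.926), with *Calcr* after *Clmn* (r = 0.899 and 0.903), and *Calcr* was most like *Edn3* (r = 0.901) and then *Chodl*. *Vcam1* was nearest to *Fgfr1* (r = 0.932), *Sdc4* to *Adarb1* (r = 0.962), *Itga7* to *Mest* (r = 0.961) and *Ncam1* to *Cux1* (r = 0.946). *Cd34* was nearest to *Abca8a* (r = 0.956), *Cxcr4* to *M6pr* (r = 0.910), *Cd9* to *Gnb1* (r = 0.961) and *Sdc3* to *Tap2* (r = 0.939).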

How the data were processed

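Single cell RNA-sequencing (10x, 3′) was performed on 2 control and 2 α-cdKO samples, each from 2 pooled mice. The authors deposited raw UMI counts per gene and cell, made with Cell Ranger 7.1.0 on GRCm38 (2020-A). Per the study's methods and processing notes, Seurat 4.0.3 was used afterwards, and no cell annotation was used here.

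Barcodes needed 1000 or more UMIs, 400 or more genes and a mitochondrial share below 15%. Cells were clustered in Seurat 5.3.0 (2000 variable genes, 30 principal components, Harmony written anew in R, Louvain resolution 0.2), with the 10 genes left out of variable genes and markers. Differences from the study's classes may come from these rebuilt names. A limit of 100 CPM of *Myod1* for mixed barcodes was set after the data were seen. Putative doublets were kept in, since the Scrublet threshold called at most 5 in a library, and were left out as an alternative.

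For each sample, UMIs of the cells in a class were added up. Genotypes were compared by the quasi-likelihood test of edgeR 4.0.16 (TMM, genes kept by filterByExpr, Benjamini-Hochberg over all genes tested), which was tested on simulated data, and classes by their ranges over samples, with no test. Shares of cells were taken after thinning to 2000 UMIs, which left out 341 myogenic cells (131 quiescent-like and 168 activated-like), 420 mature-muscle-like and 18 non-myogenic cells. Their intervals are exact (Clopper-Pearson, 95%), a count of 0 allows 3 counts, and both cover counting error only. Overlapping genes of the count table lay on the opposite strand, with at most 443 UMIs (*Cd9* had 116553).

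All 10 genes are named. From 3 lists (partners, other MuSC surface genes, lineage exclusion genes), genes called or else up to 3 with the largest fold at 10 CPM or more are named. Members and lists were chosen with earlier results of these data known. Samples are separate pools, but each genotype has only 2 of them, so p-values measure the spread between these. Alternatives were DESeq2 1.42.0, other size factors, no count filter, a replicate block, each sample left out, other depths and clusterings, and cells with Y-linked and no *Xist* UMIs.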

Additional observations from a re-analysis of the deposited data

How the results depend on the processing

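No alternative gave more than 1 of the 10 genes called between genotypes, where the edgeR test as reported above gave 0. A crossed replicate block, which gave 1 in cycling-like cells, is described below. The count was 1 in all myogenic cells with DESeq2 (*Cd9*, adjusted p = 0.032, with 118 of 23072 genes called), 1 each in quiescent-like and activated-like cells with no count filter (*Cd9*, edgeR adjusted p = 0.0322 and 0.00374, with 294 of 20428 and 373 of 21305 genes called), and 1 in cycling-like cells with no count filter (*Sdc4*, with 196 of 17736 genes called). Calls over all genes depended strongly on the setting, from 0 to 172 in all myogenic (26 as reported), 2 to 294 in quiescent-like (9), 15 to 373 in activated-like (48), 0 to 196 in cycling-like (3), 1 to 91 in differentiated-like cells (1) and 0 to 110 for the difference between classes (2). The cause was not tested. Leaving out each sample gave 0 called genes among the 10 in each class. The omission of Control 1 (*Vcam1*, *Cxcr4*, and *Sdc4* in quiescent-like cells), α-cdKO 2 (*Vcam1*) or α-cdKO 1 (*Sdc4*) turned the sign of uncalled log2 fold changes of *Vcam1* (−0.14 to 0.19 in myogenic, −0.0699 to 0.24 in activated-like cells), *Sdc4* (−0.33 to 0.000815 in myogenic, −0.14 to 0.00936 in activated-like, and −0.34 to 0.23 in quiescent-like cells) and *Cxcr4* in quiescent-like cells (−0.11 to 0.55). In cells with Y-linked and no *Xist* UMIs *Sdc4* was at 0.0211 in myogenic and 0.0331 in quiescent-like cells. Of 252 such fold changes, 238 kept direction and side of the threshold, 3 passed it and 11 turned. These 252 cover only *Cd9*, *Cd34*, *Itga7*, *Cxcr4*, *Vcam1* and *Sdc4* in all myogenic, quiescent-like and activated-like cells.

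With the replicate block, 0 of the 10 were called in each class. Over genes, the deviations of same-numbered samples had a correlation of −0.24 in myogenic, −0.17 in activated-like and 0.14 in differentiated-like cells. With 2 samples per genotype, this cannot show whether the numbers pair the samples. A crossed replicate block, added after the data were seen, called 172 of 14622 genes and 0 of the 10 in myogenic cells, and 174 of 8939 genes and 1 of the 10 (*Sdc4*) in cycling-like cells.

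The 7 genes separated between quiescent-like and activated-like cells were 8 when any sample was left out or high doublet scores were removed and 9 at resolution 0.4, with all 7 included and none in the opposite direction. Leaving out a sample can only keep or add separated genes, so for those settings this was fixed in advance and is no check. Against cluster 1 alone 6 were separated, and against cluster 0 alone 9. The genes added in these settings were *Cxcr4* and *Sdc3*, the latter under the 10 CPM floor, which was not applied here. How many of all genes were separated was not computed for these settings or for the shares of cells. Shares of cells separated 7 genes at 2000 UMIs, 7 at 4000 UMIs (*Cxcr4* in place of *Vcam1*) and 4 without thinning (*Cd34*, *Chodl*, *Sdc4* and *Cd9*), where depth is not matched. Of the 9 pairs, 3 to 6 exceeded the product in all samples used, where leaving out a sample can again only keep or add pairs. Depth limits *Sdc3* and every non-myogenic type, and the adjusted p rests on 2 pools per genotype.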

Other observations

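Levels of several of the 10 transcripts in mature-muscle-like barcodes differed between samples. This class joins 2 unlike clusters, 1140 barcodes with *Myod1* at 38.6 CPM and a median of 2895.5 UMIs and 213 with *Myod1* at 466 CPM and a median of 6721 UMIs, and their part in the differences was not tested. *Vcam1* was at 54.7, 91.4 and 69.8 CPM in Control 1, Control 2 and α-cdKO 1 and at 351 CPM in α-cdKO 2, and *Chodl* was at 38.6, 42.1, 48.4 and 199 CPM. α-cdKO 2 had the fewest such barcodes, 113, against 833 in Control 2, and their median depth was 5949 UMIs against 2696. Against activated-like cells, 6 of the 10 genes were lower in every value (*Vcam1*, *Itga7*, *Sdc4*, *Calcr*, *Ncam1* and *Cd9*), where 46.3% of all genes were, and 0 were higher (29.2%).

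Some of the 10 genes, *Cd34*, *Sdc3*, *Cd9*, *Sdc4* and *Ncam1*, were also frequent in other cells of the muscle. Of 69 endothelial-like cells at 2000 UMIs, 36.2% had a *Cd34* and 21.7% an *Sdc3* UMI, against 8.16% and 0.649% of activated-like cells. Of 29 glial-like cells, 96.6% had a *Cd9*, 79.3% an *Sdc4* and 48.3% an *Ncam1* UMI, and none had a *Chodl* or *Cd34* UMI, which allows up to 10.3%. *Cd34* was found in 76.0% of 25 fibro-adipogenic-like cells.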
